A study of Mus musculus with 6 samples.

Results

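A set of 35 genes of endothelial cells, the cells that line blood and lymph vessels, was followed in E13.5 mouse pancreata in which β-catenin had been stabilized in the pancreatic epithelium. They are adhesion proteins, receptors, ligands, transcription factors and secreted proteins chosen by name, and all 35 were found among the 19938 genes tested, each as 1 row of the array with a single gene symbol. The control group (wild type in the labels) and the mutant group (Pdx1-Cre; Ctnnb1 tm1Mmt/+, in the labels Pdx-Cre with beta catenin-exon3 floxed) had 3 pools each, every pool made from 3 pancreata and hybridized to its own Affymetrix Mouse Gene 1.0 ST array. In the mutant embryos Cre, expressed from the Pdx1 promoter, cuts out the floxed exon 3 of 1 Ctnnb1 allele, and the protein then made is not marked for destruction. The promoter is active in the pancreatic epithelium and not in vessels, so the allele is meant to be recombined in cells next to the endothelium. The alleles of the control embryos are not described beyond wild type, and strain and sex are not stated.

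Endothelial cells of the embryo depend on vascular endothelial growth factors (VEGFs), which bind receptor tyrosine kinases on their surface, and on angiopoietins, which bind the receptor Tek and steady or loosen the vessel wall. Transcription factors of the ETS family, among them Erg, Fli1 and Ets1, hold most endothelial genes active. In the pancreas, vessels lie close to the epithelial bud from its first outgrowth and are a known source of signals to it, and the epithelium in turn makes VEGF.

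Array values are log2 values as deposited, and the sources used here do not name the method of normalization. Values of different genes come from different probes, so levels were compared between pools and not between genes. Differences were tested with limma, p-values were adjusted over all genes by the Benjamini-Hochberg method, the threshold was 0.05, and all log2 changes are mutant minus control. Array medians lay between 6.37 and 6.47, arrays of a genotype correlated at 0.993 to 0.997 and arrays of different genotypes at 0.973 to 0.979 across genes, which are not independent replicates. All 7 genes tested of a list of 8 pancreatic epithelial markers were lower in mutants (median log2 change -3.27), beside 7.53% of all genes. Their mean array value was 10.28 to 10.57 in the control pools and 6.89 to 7.09 in the mutant pools. The study lists these 7 genes as lower from the same arrays, so their fall was known beforehand and is no independent check.

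Promoter sequences are shown for 5 genes, the VEGF receptor genes and the connexin genes, because 1 of the former and both of the latter differed between the genotypes. They are the 250 bases before the start site in RefSeq (GRCm38.p6), 5′ to 3′ on the strand of the gene, for Flt4 (chr11:49609429-49609678, plus strand), Kdr (chr5:75978456-75978705, minus strand), Flt1 (chr5:147726012-147726261, minus strand), Gja4 (chr4:127314040-127314289, minus strand) and Gja5 (chr3:97032152-97032401, plus strand). Capitals mark the core of ETS factor sites, GGAA, on either strand.
Flt4: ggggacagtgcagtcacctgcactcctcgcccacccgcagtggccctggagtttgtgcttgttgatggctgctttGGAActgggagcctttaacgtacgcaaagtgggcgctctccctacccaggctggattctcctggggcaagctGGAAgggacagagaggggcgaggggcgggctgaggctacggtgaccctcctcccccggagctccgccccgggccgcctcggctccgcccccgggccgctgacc
Kdr: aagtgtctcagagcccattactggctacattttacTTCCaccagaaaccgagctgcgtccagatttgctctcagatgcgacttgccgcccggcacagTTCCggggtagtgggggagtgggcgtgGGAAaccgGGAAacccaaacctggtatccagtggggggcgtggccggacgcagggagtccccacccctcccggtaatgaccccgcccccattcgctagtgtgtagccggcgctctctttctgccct
Flt1: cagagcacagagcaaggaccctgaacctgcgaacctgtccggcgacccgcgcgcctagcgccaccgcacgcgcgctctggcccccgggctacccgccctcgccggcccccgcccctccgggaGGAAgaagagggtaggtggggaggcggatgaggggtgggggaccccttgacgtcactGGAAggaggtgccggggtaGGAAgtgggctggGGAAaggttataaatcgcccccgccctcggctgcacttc
Gja4: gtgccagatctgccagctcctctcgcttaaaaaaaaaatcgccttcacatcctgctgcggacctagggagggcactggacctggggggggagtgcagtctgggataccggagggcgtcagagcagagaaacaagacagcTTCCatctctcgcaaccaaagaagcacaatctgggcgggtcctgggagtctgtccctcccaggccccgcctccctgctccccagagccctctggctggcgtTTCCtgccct
Gja5: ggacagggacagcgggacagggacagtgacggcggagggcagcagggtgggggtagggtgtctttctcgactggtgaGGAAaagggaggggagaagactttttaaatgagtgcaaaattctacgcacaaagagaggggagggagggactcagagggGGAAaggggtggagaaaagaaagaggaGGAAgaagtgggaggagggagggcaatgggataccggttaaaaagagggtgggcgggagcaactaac
The core occurred 2 times before Flt4, 4 times each before Kdr and Flt1, 2 times before Gja4 and 3 times before Gja5. Such a short string is in 93.4% of the 32851 promoter windows of this length in the table. The core of TCF/LEF sites, CTTTGAT, through which β-catenin acts on its targets, was in none of the 5 windows on either strand and in 3.21% of all windows. Of the 35 genes, 16 had a window in the table.

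Of the 35 endothelial genes, 13 were higher in the mutant pools and none was lower, while the other 22 fell short of the threshold. The count depended on the processing. With arrays weighted by quality, 23 were higher and 1 lower, beside 3025 higher and 2422 lower of all 19938 genes. With each array centred on Pecam1, Cdh5 and Kdr, which belong to the list, 8 were higher and 2 lower (median log2 change 0.12). Of all genes 652 were then higher and 2958 lower. In the limma fit that gave the 13 genes, 14.1% of all genes were called, 6.59% higher and 7.53% lower. These shares are to be set beside the counts in each group of the 35 genes below. The median log2 change of the 35 genes was 0.30, beside 0.03 for all 19938 genes tested, and 30 of the 35 changes were above 0. The mutant pools all lay above the control pools in 19 of the 35 genes, where this held for 16.9% of all genes, and all lay below them in 2, where this held for 13.9% (30.9% of all genes in either direction). Angpt1 and Lmo2, the genes of largest change, are also made by mesenchymal and blood cells respectively. Without them 11 of 33 genes were higher, with a median of 0.24. Ets1, Cd34, Lyve1, Vwf and Mmrn1, which stay among the 33, are made by other cells as well. Standard errors of the changes ran from 0.09 to 0.24 on the log2 scale. The mean array value over the 35 genes was 8.22 to 8.30 in the control pools and 8.54 to 8.67 in the mutant pools, so the genotypes did not overlap. RNA of whole pancreata was measured. More endothelial cells, a larger endothelial share of the RNA beside less epithelium, and more RNA per cell cannot be told apart. General epithelial genes were lower in the same mutant pools (median log2 change -0.78), and their part was not tested.

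**Figure D1:**
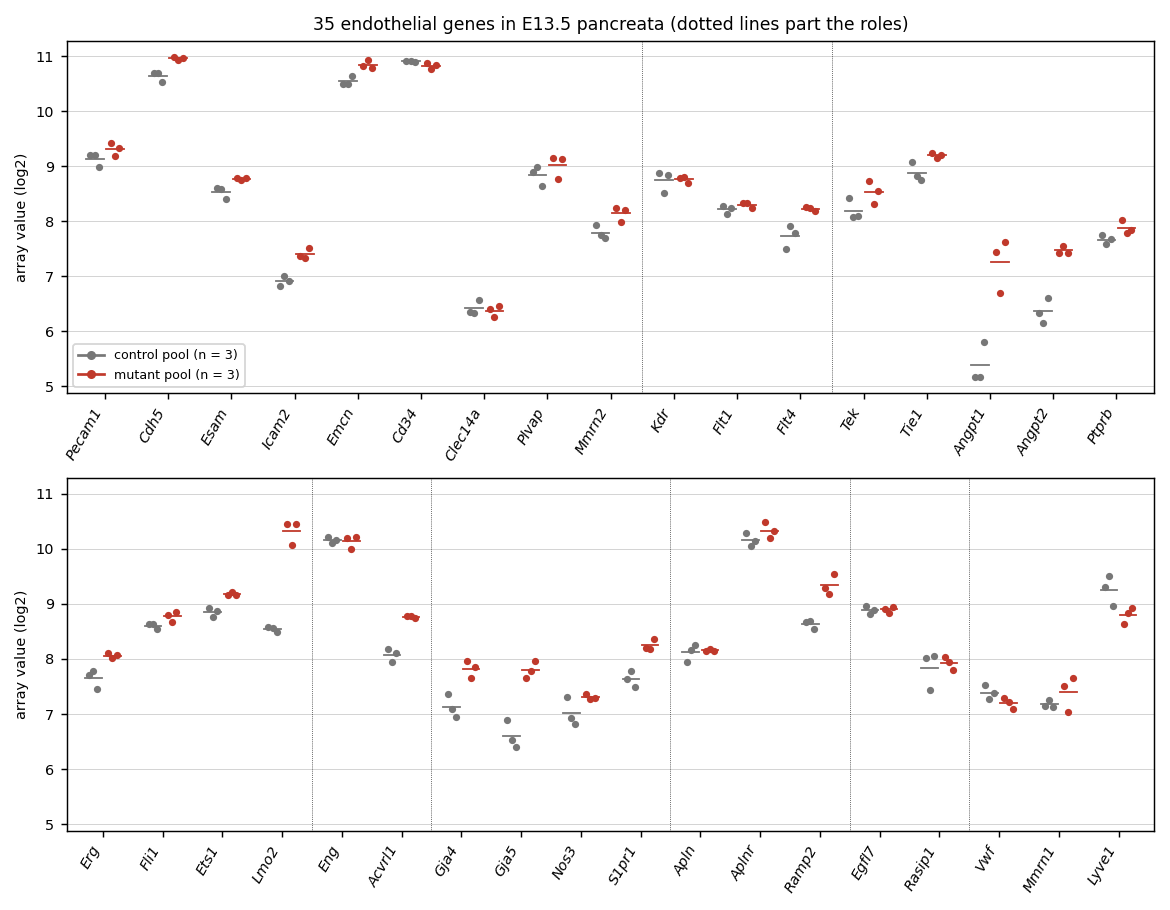
Array values (log2, vertical axis) of the 35 endothelial genes in E13.5 pancreata, with 1 point per pool and horizontal bars for means (control in grey, mutant in red, n = 3 pools each). Mutant values lie above all control values in 19 genes, with the widest gaps in Angpt1, Lmo2, Gja5 and Angpt2, and below them in Cd34 and Lyve1.

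Of 9 genes of endothelial junctions and of the cell surface 2 rose, beside 6.59% of all genes tested. Cdh5 (transcript cluster 10574438), the cadherin that joins endothelial cells to each other, had log2 array values of 10.69, 10.70 and 10.53 in controls and 10.99, 10.94 and 10.97 in mutants. The mutant pools were all above the control pools, and Cdh5 rose 1.25-fold (0.32 ± 0.09 SE on the log2 scale, adjusted p = 0.0417 from limma). It lost its call when any 1 pool was left out (adjusted p from 0.0561 to 0.153). Pecam1, an adhesion protein found on nearly all endothelial cells, had values of 9.20, 9.20 and 8.98 in controls and 9.43, 9.19 and 9.34 in mutants, which overlapped. Its log2 change was 0.20 (95% confidence interval -0.04 to 0.43), with an adjusted p = 0.293 from limma. Icam2 (transcript cluster 10392177), a ligand of leukocyte integrins, had values of 6.83, 7.0 and 6.91 in controls and 7.37, 7.33 and 7.52 in mutants. These groups did not overlap, and Icam2 rose 1.41-fold (0.50 ± 0.10 SE on the log2 scale, adjusted p = 0.00635 from limma).
A few further genes of this group were above the control pools in every mutant pool but did not pass the test. Emcn, a sialomucin of veins and capillaries, had a log2 change of 0.30 (95% confidence interval 0.10 to 0.51) and an adjusted p = 0.0583 from limma, Mmrn2, a matrix protein laid down around vessels, of 0.35 (95% confidence interval 0.11 to 0.59) and adjusted p = 0.0619, and Esam, a tight junction adhesion molecule, of 0.24 (95% confidence interval 0.04 to 0.45) and adjusted p = 0.125. Emcn had values of 10.49, 10.50 and 10.64 in controls and 10.83, 10.93 and 10.78 in mutants. Mmrn2 had 7.93, 7.76 and 7.70 in controls and 8.24, 7.99 and 8.21 in mutants. Esam had 8.60, 8.59 and 8.41 in controls and 8.79, 8.75 and 8.79 in mutants. The lowest mutant pool exceeded the highest control pool in all of these, in each case by less than the range of the control pools. Without mutant replicate 2 Mmrn2 passed, with an adjusted p = 0.0279 from limma. Plvap, which forms the diaphragms of fenestrated endothelium, and Clec14a, a lectin-like surface protein, had log2 changes of 0.18 (95% confidence interval -0.12 to 0.48) and -0.05 (95% confidence interval -0.27 to 0.18), with overlapping groups. Cd34, a sialomucin that blood progenitors and some mesenchymal cells carry as well, had values of 10.91, 10.91 and 10.90 in controls and 10.88, 10.76 and 10.84 in mutants. All mutant pools were below all control pools by a small margin, and the change was -0.08 (95% confidence interval -0.27 to 0.11) with an adjusted p = 0.64 from limma.

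Among the 3 VEGF receptors only Flt4, the receptor for VEGF-C and VEGF-D on lymphatic and sprouting endothelium, passed the test. Flt4 (transcript cluster 10375578) had log2 array values of 7.49, 7.91 and 7.79 in controls and 8.26, 8.24 and 8.18 in mutants and rose 1.41-fold (0.50 ± 0.12 SE on the log2 scale, adjusted p = 0.0183 from limma). The lowest mutant pool was above the highest control pool, and the call was lost without control replicate 1 (adjusted p = 0.0613) or without mutant replicate 1 (adjusted p = 0.0741). Kdr, the main signaling receptor for VEGF-A, had values of 8.88, 8.52 and 8.84 in controls and 8.79, 8.80 and 8.70 in mutants. The groups overlapped, and the log2 change was 0.02 (95% confidence interval -0.23 to 0.27) with an adjusted p = 0.947 from limma. Flt1, which binds VEGF-A tightly and limits its signal, had a log2 change of 0.09 (95% confidence interval -0.11 to 0.29), also with overlapping groups. Whether Flt4 differed from Kdr and Flt1 in its response was not tested.

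Both angiopoietin genes rose in the mutant pools. Angpt1 (transcript cluster 10428376), the activating ligand of Tek that mesenchymal and mural cells make more than endothelium does, had log2 array values of 5.18, 5.17 and 5.80 in controls and 7.45, 6.69 and 7.62 in mutants. It rose 3.66-fold (1.87 ± 0.24 SE on the log2 scale, adjusted p = 0.00053 from limma), the largest change among the 35 genes, and the mutant pools were also the most spread of any of them, with an SD of 0.49 (n = 3). The control values lay below the array medians, and without detection calls it was not tested whether they were at background, where the fold would be a lower bound. Angpt2 (transcript cluster 10577315), which opposes Angpt1 at Tek in most settings and is made by sprouting endothelium, had values of 6.34, 6.16 and 6.60 in controls and 7.43, 7.56 and 7.43 in mutants. It rose 2.16-fold (1.11 ± 0.12 SE on the log2 scale, adjusted p = 0.000166 from limma), and every mutant pool was above every control pool by a wide margin. The receptors of the pathway did not pass the test. Tie1, a partner of Tek, had values of 9.07, 8.82 and 8.75 in controls and 9.25, 9.15 and 9.21 in mutants, with no overlap, a log2 change of 0.33 (95% confidence interval 0.09 to 0.56) and an adjusted p = 0.0714 from limma. Without control replicate 1 it passed, with an adjusted p = 0.0358 from limma. Tek itself had values of 8.42, 8.07 and 8.10 in controls and 8.74, 8.32 and 8.55 in mutants, of which mutant replicate 2 lay within the control range, and its change was 0.34 (95% confidence interval 0.04 to 0.64) with an adjusted p = 0.144. Ptprb, a phosphatase that switches off Tek, had values of 7.75, 7.58 and 7.68 in controls and 8.02, 7.78 and 7.84 in mutants. The groups just failed to overlap, and the change was 0.21 (95% confidence interval -0.01 to 0.44) with an adjusted p = 0.224 from limma.

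The 4 transcription factors of the list were higher in every mutant pool than in any control pool, which held for 16.9% of all genes. Of the 4, 3 passed the test as higher, beside 6.59% of all genes. Lmo2 (transcript cluster 10474201), a LIM domain adaptor protein needed for blood formation and for the remodeling of vessels, had log2 array values of 8.58, 8.57 and 8.49 in controls and 10.46, 10.08 and 10.46 in mutants. It rose 3.44-fold (1.78 ± 0.12 SE on the log2 scale, adjusted p = 6e-06 from limma), with the smallest adjusted p of the 35 genes. Erg (transcript cluster 10441093) had values of 7.71, 7.78 and 7.46 in controls and 8.10, 8.02 and 8.07 in mutants and rose 1.33-fold (0.42 ± 0.10 SE on the log2 scale, adjusted p = 0.0248 from limma), with no overlap. Its call was lost without control replicate 1 (adjusted p = 0.0556), control replicate 3 (0.0775), mutant replicate 1 (0.1) or mutant replicate 3 (0.0677). Ets1 (transcript cluster 10584142), which lymphoid and mesenchymal cells express as well, had values of 8.93, 8.77 and 8.87 in controls and 9.16, 9.22 and 9.16 in mutants. It rose 1.25-fold (0.33 ± 0.09 SE on the log2 scale, adjusted p = 0.0374 from limma), and lost the call when any 1 pool was left out (adjusted p from 0.0669 to 0.117). Fli1 had values of 8.64, 8.63 and 8.54 in controls and 8.80, 8.68 and 8.85 in mutants, and its log2 change of 0.17 (95% confidence interval -0.04 to 0.38) did not pass, with an adjusted p = 0.296 from limma.

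Eng and Acvrl1 encode the co-receptor and the kinase receptor for BMP9 and BMP10 on endothelium, and only the kinase receptor gene passed the test. Acvrl1 (transcript cluster 10426999) had log2 array values of 8.18, 7.95 and 8.10 in controls and 8.79, 8.78 and 8.74 in mutants. It rose 1.62-fold (0.70 ± 0.09 SE on the log2 scale, adjusted p = 0.000697 from limma), and the mutant pools lay within 0.05 of each other, clear of the control pools. Eng had a mean log2 value of 10.17 ± 0.05 (SD, n = 3) in the control pools and 10.14 ± 0.12 (n = 3) in the mutant pools, which overlapped, and a log2 change of -0.03 (95% confidence interval -0.25 to 0.18).

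Of 4 genes of arteries and of the response to blood flow, grouped by name, 3 rose, beside 6.59% of all genes tested. Gja5 (transcript cluster 10494548), the gap junction protein connexin 40 of arterial endothelium, had log2 array values of 6.89, 6.53 and 6.40 in controls and 7.66, 7.79 and 7.96 in mutants and rose 2.29-fold (1.20 ± 0.14 SE on the log2 scale, adjusted p = 0.000255 from limma). Gja4 (transcript cluster 10516481), connexin 37, which shares arterial endothelium with it, had values of 7.36, 7.09 and 6.94 in controls and 7.97, 7.65 and 7.86 in mutants and rose 1.62-fold (0.69 ± 0.13 SE on the log2 scale, adjusted p = 0.00505). In both connexin genes the lowest mutant pool was above the highest control pool. S1pr1 (transcript cluster 10501586), the sphingosine 1-phosphate receptor that quiets sprouting, had values of 7.63, 7.78 and 7.50 in controls and 8.20, 8.18 and 8.36 in mutants. It rose 1.53-fold (0.61 ± 0.11 SE on the log2 scale, adjusted p = 0.00303 from limma), again with no overlap. Nos3, the endothelial nitric oxide synthase, had values of 7.31, 6.92 and 6.82 in controls and 7.37, 7.28 and 7.30 in mutants. Control replicate 1 lay among the mutant pools, the log2 change was 0.30 (95% confidence interval 0.01 to 0.58) with an adjusted p = 0.18 from limma, and without that pool it was called (adjusted p = 0.0292).

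**Figure D2:**
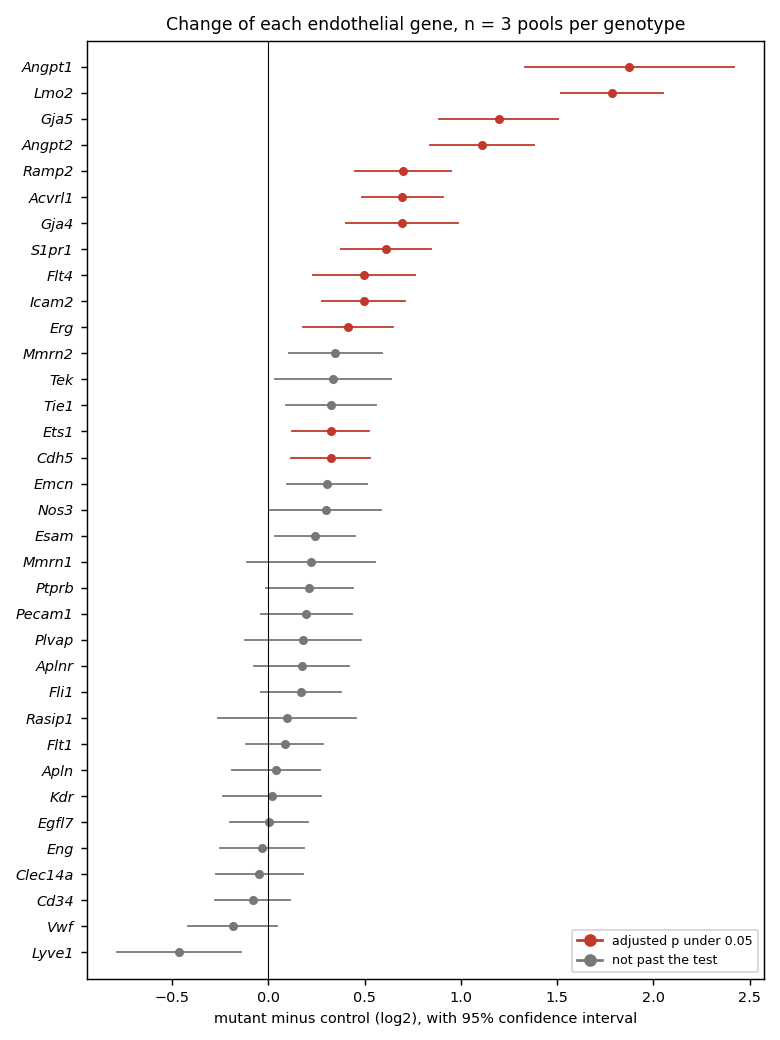
Log2 changes (mutant minus control, horizontal axis) of the 35 endothelial genes with their 95% confidence intervals from limma, n = 3 pools per genotype. The 13 genes past the test (red) all lie above 0, from 0.32 for Cdh5 to 1.87 for Angpt1, and Lyve1 has the lowest change at -0.46.

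Of the peptide receptor genes, Ramp2 rose. Ramp2 (transcript cluster 10381298), which turns the calcitonin receptor-like receptor into a receptor for adrenomedullin, had log2 array values of 8.67, 8.69 and 8.55 in controls and 9.29, 9.18 and 9.54 in mutants. It rose 1.62-fold (0.70 ± 0.11 SE on the log2 scale, adjusted p = 0.00192 from limma), and the groups did not overlap. Aplnr, the apelin receptor of venous and sprouting endothelium, and Apln, its ligand from tip cells, had log2 changes of 0.17 (95% confidence interval -0.07 to 0.42) and 0.04 (95% confidence interval -0.19 to 0.27), and both sets of pools overlapped. Egfl7, a matrix protein secreted by endothelium, had a change of 0.01 (95% confidence interval -0.20 to 0.21), and Rasip1, which is needed for vessels to open a lumen, of 0.10 (95% confidence interval -0.26 to 0.46). Egfl7 lay between 8.82 and 8.97 in all 6 pools, while for Rasip1 control replicate 2, at 7.43, lay below the other pools, which were at 7.80 to 8.06.

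None of the 3 genes of hemostasis and of lymphatic vessels passed the test. Lyve1, a hyaluronan receptor of lymphatic endothelium that is also found on tissue macrophages, had log2 array values of 9.31, 9.50 and 8.97 in controls and 8.63, 8.84 and 8.93 in mutants. Every mutant pool was below every control pool, and the log2 change of -0.46 (95% confidence interval -0.78 to -0.14) did not pass (adjusted p = 0.0612 from limma), although it did without control replicate 3 (adjusted p = 0.0157). Vwf, the clotting protein stored by endothelium and platelets, and Mmrn1, another protein of both, had log2 changes of -0.18 (95% confidence interval -0.42 to 0.05) and 0.22 (95% confidence interval -0.11 to 0.55), with overlapping groups. Mmrn1 was spread among the mutant pools, at 7.51, 7.04 and 7.66, and passed without mutant replicate 2 (adjusted p = 0.029 from limma).

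To see which of these changes exceeded that of the defining endothelial genes, each array was centred on the mean of Pecam1, Cdh5 and Kdr, a scaling added after the data were seen that lowers the median of all genes by 0.18. All changes under it are relative to these 3 genes, which are among the 35 and whose mean cannot change under it. Of all genes 652 were higher and 2958 lower on this scale. Of the 35 genes 8 were then higher and 2 were lower, with a median log2 change of 0.12, and the 8 were Angpt1, Angpt2, Lmo2, Acvrl1, Gja4, Gja5, S1pr1 and Ramp2. Gja4 had a log2 change of 0.51 on this scale (adjusted p = 0.00901 from limma) and Acvrl1 of 0.51 (adjusted p = 0.0045). Lyve1 (-0.64, adjusted p = 0.00927) and Vwf (-0.37, adjusted p = 0.0343) were the 2 that were lower. These 8 genes also kept their call in every other alternative of the processing in which they were tested. Of the other 5 genes that rose, Icam2 lost its call under this scaling only (adjusted p = 0.0884 from limma, and 0.00858 to 0.0346 with 1 pool left out), while Flt4, Erg, Ets1 and Cdh5 lost theirs in 4, 7, 9 and 9 alternatives.

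Ligands, co-receptors and enzymes that meet the receptors of the list were followed as a group of 23 genes, of which 21 were tested. Past the test were 7 that were higher and 5 that were lower, which left 9, with a median log2 change of 0.14 (-0.04 with arrays centred on Pecam1, Cdh5 and Kdr). Over all genes tested, 6.59% were higher and 7.53% lower. Calcrl, the receptor that Ramp2 pairs with, had log2 array values of 7.94, 8.06 and 7.85 in controls and 9.19, 8.99 and 9.49 in mutants and rose 2.42-fold (1.27 ± 0.13 SE on the log2 scale, adjusted p = 0.000126 from limma). The transcripts of both chains of the adrenomedullin receptor were therefore higher, while Adm, which encodes the hormone, had a log2 change of 0.18 (95% confidence interval -0.05 to 0.41). The ligands of Flt4 moved apart. Vegfc had log2 array values of 6.44, 6.52 and 6.25 in controls and 7.36, 7.48 and 7.40 in mutants and rose 2.01-fold (1.01 ± 0.10 SE on the log2 scale, adjusted p = 9.84e-05 from limma). Vegfd had 7.55, 7.67 and 8.17 in controls and 7.26, 7.12 and 7.09 in mutants and fell (-0.64 ± 0.15 SE on the log2 scale, adjusted p = 0.0175), and so did Ccbe1, which is needed to process VEGF-C (-0.60 ± 0.11 SE on the log2 scale, adjusted p = 0.00364). Vegfa, the ligand of Kdr, had values of 9.64, 9.61 and 9.39 in controls and 9.41, 9.27 and 9.40 in mutants, with overlap and a log2 change of -0.18 (95% confidence interval -0.41 to 0.04).
Other partners changed as well. Sphk1, a kinase that makes sphingosine 1-phosphate, had log2 array values of 8.45, 8.93 and 8.49 in controls and 6.89, 6.76 and 7.04 in mutants and fell 3.31-fold (-1.73 ± 0.14 SE on the log2 scale, adjusted p = 2.28e-05 from limma). The transcript of this enzyme was thus lower and that of the receptor S1pr1 higher, while enzyme activity and the lipid were not measured. S1pr2 and S1pr3, further receptors of the lipid, overlapped between the genotypes. Their log2 changes were -0.03 (95% confidence interval -0.27 to 0.21) and 0.03 (95% confidence interval -0.18 to 0.24). Cxcr4, the chemokine receptor of sprouting and arterial endothelium and of many other cells, rose 3.57-fold (1.84 ± 0.11 SE on the log2 scale, adjusted p = 3.25e-06), and its ligand Cxcl12 rose as well (0.58 ± 0.11 SE on the log2 scale, adjusted p = 0.00552). Tgfb1 rose (0.70 ± 0.11 SE on the log2 scale, adjusted p = 0.00213 from limma), and Svep1, a matrix protein that takes part in lymphatic growth, fell (-0.79 ± 0.18 SE on the log2 scale, adjusted p = 0.0132). Gdf2 and Bmp10, which encode the ligands of Acvrl1, had log2 changes of 0.22 (95% confidence interval 0.02 to 0.42) and 0.08 (95% confidence interval -0.19 to 0.35). Neither passed (adjusted p = 0.162 and 0.771 from limma). Control and mutant means were 4.84 and 5.06 for Gdf2 and 3.67 and 3.75 for Bmp10. These lie below the array medians, and it was not tested whether they were at background.

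**Figure D3:**
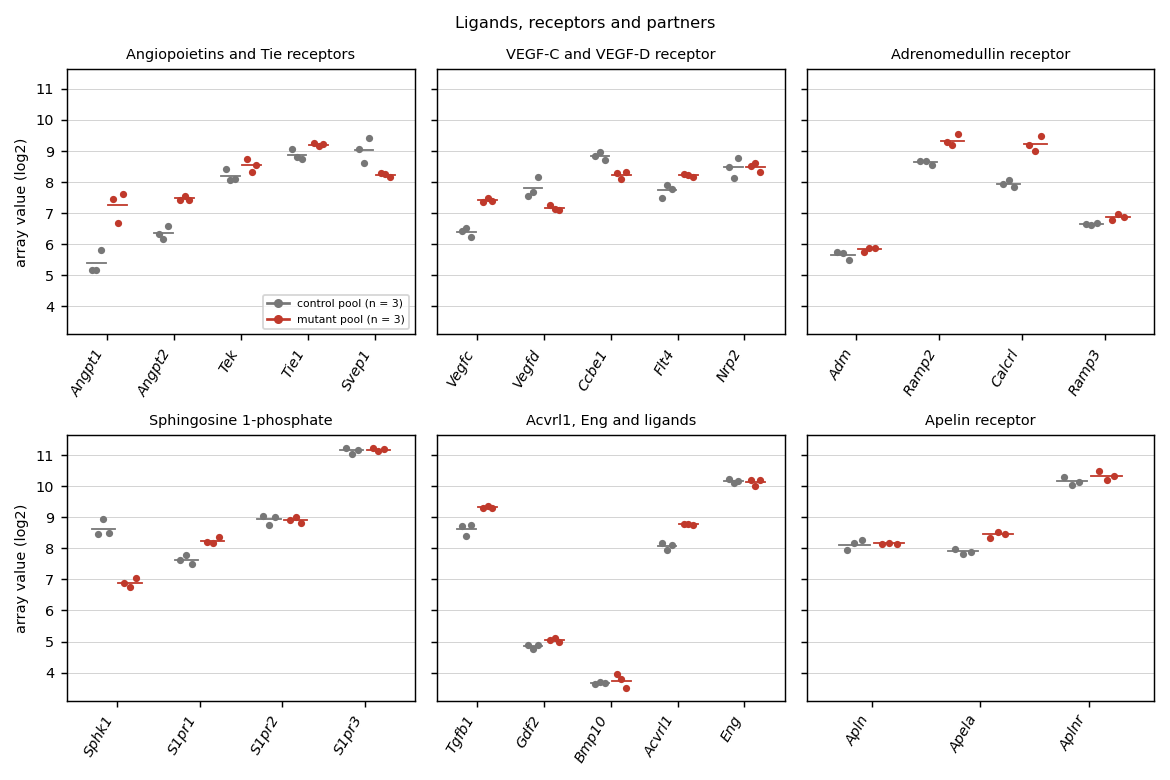
Array values (log2, vertical axis) of ligands, receptors and partners in 6 pathways of the endothelial genes, with 1 point per pool and bars for means (control in grey, mutant in red, n = 3 pools each). Angpt1, Angpt2, Vegfc, Ramp2, Calcrl, S1pr1, Tgfb1 and Acvrl1 lie higher in the mutant pools, and Svep1, Vegfd, Ccbe1 and Sphk1 lie lower, with no overlap in any of these.

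A further list of 38 vascular genes outside the 35 was taken from the same fit. Past the test were 9 that were higher and 1 that was lower, which left 28, with a median log2 change of 0.15. Over all genes tested, 6.59% were higher and 7.53% lower. The mutant pools all lay above the control pools in 16 of the 38 and below them in 3, which were Nrp1, Robo4 and Dll4. Among all genes this held for 16.9% and 13.9%. Sox17, a transcription factor of arterial endothelium that endoderm also expresses, had log2 array values of 6.43, 6.55 and 6.36 in controls and 8.58, 8.19 and 8.53 in mutants and rose 3.98-fold (1.99 ± 0.12 SE on the log2 scale, adjusted p = 3.5e-06 from limma). Efnb2, the ephrin of arteries, which epithelium and mesenchyme make too, rose 3.61-fold from values of 8.14, 7.99 and 8.23 in controls and 10.11, 9.93 and 9.88 in mutants (1.85 ± 0.10 SE on the log2 scale, adjusted p = 2.08e-06). Hey2, a Notch target of arteries, rose 2.14-fold (1.10 ± 0.12 SE on the log2 scale, adjusted p = 0.000177), and Unc5b, a netrin receptor of arterial and tip cells, rose 1.87-fold (0.90 ± 0.14 SE on the log2 scale, adjusted p = 0.00159). The groups did not overlap in any of these genes. Nrp1, the co-receptor of Kdr, which neurons and mesenchyme share, was the only gene past the test that fell (-0.39 ± 0.09 SE on the log2 scale, adjusted p = 0.0138 from limma). Robo4 (log2 change -0.32, 95% confidence interval -0.55 to -0.09, adjusted p = 0.0708 from limma) and Dll4 (-0.24, adjusted p = 0.175) were also lower in every mutant pool. Neither passed, and Dll4 is a gene of arteries, so not all arterial genes of this list rose. Without mutant replicate 1, 5 of the 38 genes were higher and none was lower, beside 843 higher and 1132 lower of all genes. With each array centred on Pecam1, Cdh5 and Kdr 4 were higher and 3 lower and the median was -0.03, so the sign of the median turned with the scaling. Of all genes 652 were then higher and 2958 lower.

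Markers of other cell types moved between the genotypes too, and their part in the changes above was not tested. For comparison with the counts below, 6.59% of all genes tested were higher and 7.53% lower. General epithelial genes fell in 9 of 10 cases with none higher (median log2 change -0.78), and their mean array value was 9.99 to 10.14 in the control pools and 9.11 to 9.24 in the mutant pools. The 10 mural cell genes, of the pericytes and smooth muscle cells that wrap vessels, went both ways, with a median log2 change of 0.32. Kcnj8 (0.93), Mcam (0.56), Abcc9 (0.50) and Pdgfrb (0.40) were higher, and Anpep (-2.07) and Rgs5 (-0.95) were lower. The list mean, which the fall of Anpep lowers, was 8.65 to 8.69 in the control pools and 8.64 to 8.68 in the mutant pools. Whether mural cells or other cells of the pancreata made these transcripts was not tested. None of the 7 tested of 11 megakaryocyte and platelet genes passed the limma test in either direction (0 also had an unadjusted p under 0.05), with a mean of 6.73 to 6.89 in the control pools and 6.72 to 6.80 in the mutant pools. Of 13 macrophage and leukocyte genes 1, Coro1a (0.60), was higher, and the mean was 7.86 to 8.14 in the control pools and 8.05 to 8.29 in the mutant pools. Of the 9 tested of 12 erythroid genes 1 was higher and 1 was lower, with a mean of 7.68 to 8.01 in the control pools and 7.60 to 7.93 in the mutant pools. General mesenchymal genes, 11 tested of 12, had 1 higher and 1 lower, with a mean of 10.07 to 10.23 in the control pools and 10.07 to 10.25 in the mutant pools, and mesothelial genes had 4 of 8 lower and none higher, with a mean of 7.81 to 8.14 in the control pools and 7.40 to 7.61 in the mutant pools. The rows of highest mean array value in these lists, which depends on the probes and does not rank transcript levels, were Cldn6 (-0.43), Pdgfrb, Ppbp (-0.12), Laptm5 (0.23), Hbb-y (-0.10), Vim (-0.02) and Upk3b (-0.51), with their log2 changes in parentheses.

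**Figure D4:**
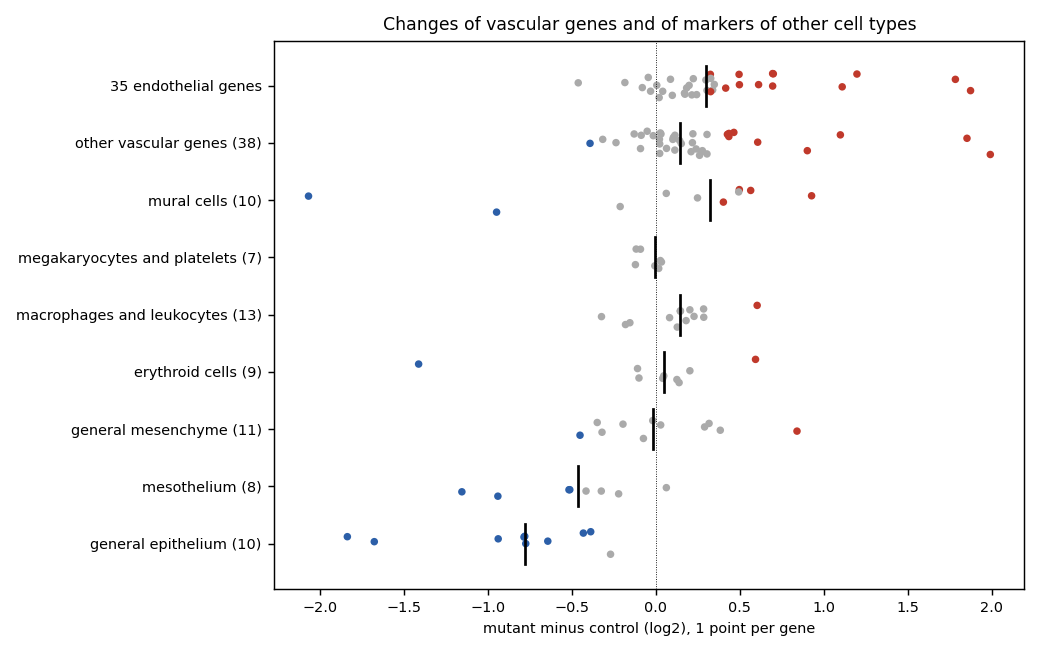
Log2 changes (mutant minus control, horizontal axis) of the 35 endothelial genes, of other vascular genes and of markers of other cell types, with 1 point per gene, red and blue for genes higher and lower past the limma test, grey for the others, and black bars for list medians. The endothelial median lies at 0.30, and that of the general epithelial genes at -0.78.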

How the data were processed

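RNA of E13.5 pancreata was measured on 6 arrays, 1 for each pool of 3 pancreata, and genotype and replicate were taken from the sample titles. The authors deposited log2 values for 35556 transcript clusters. The sources used here do not give their background correction, summarization or normalization. No probe signals or detection calls were used, and the number of arrays and the spread between pools limit the precision. The methods call the pools independent, but litters are not given, and p-values measure the spread between these pools.

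Rows were named through the platform annotation: the 21789 rows with a single symbol were used, and those with several (1621) or none (12146) were left out. For a gene on more than 1 row the row of highest mean was kept, which left 19938 genes. No build is named for the values, so no positions of the array rows are given, and the promoter positions are those of RefSeq. Mutant was compared with control by limma 3.58.1 in R 4.3.3 (lmFit, eBayes, no covariate, no filter) with Benjamini-Hochberg adjustment over all genes and a threshold of 0.05, after a test on simulated data. For 1 gene, permuting 3 against 3 pools exactly gives p = 0.1 at the least. Tables and figures were made with Python 3.11.15, pandas 2.3.3 and matplotlib 3.10.9. Promoters are from RefSeq, and the promoters printed and both motifs were chosen after the values, and other short motifs, had been looked at.

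The 35 genes and all other lists were chosen with earlier results of these data known. Among the 35, values are given for every pool for genes past the test, for Pecam1, Cdh5 and Kdr and for genes whose groups do not overlap. Of the 2 other vascular lists, up to 4 genes past the test in each direction are named. Cxcl12, Adm, Vegfa, S1pr2, S1pr3, Gdf2, Bmp10, Robo4, Dll4, the mural and leukocyte genes named, and the genes of the closing section were named after their values were seen. Alternatives were each pool left out, a block for the replicate number, other scalings, filters on dim genes, other rules for rows, another prior and array weights. The scaling on 3 endothelial genes was added after the data were seen.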

Additional observations from a re-analysis of the deposited data

How the results depend on the processing

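The 13 genes that rose stayed above 0 in every alternative in which they were tested, and 8 of them kept their call in all of these. Over 589 combinations of gene and alternative, 30 lost a call and 34 gained one. With array weights 23 of the 35 genes were higher and 1 was lower, among 3025 higher and 2422 lower genes in all (55.5% higher, against 1313, 1502 and 46.6%). One gene, Lyve1, was lower with the filter at the lower quartile or at the median of level, with quantile normalization and with the trended and robust prior (1 lower in each). Leaving out 1 pool gave 9 to 13 higher and 0 to 1 lower of the 35 genes, with medians of 0.22 to 0.31. With arrays centred on Pecam1, Cdh5 and Kdr 8 were higher and 2 lower, with a median of 0.12, among 652 higher and 2958 lower genes in all (18.1% higher). With arrays centred on their medians 54.8% of all calls were higher. With rows of every kind fitted, 751 genes were higher and 1028 lower.

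Among the 38 other vascular genes 15 were higher and 3 lower with array weights, 4 and 3 with centring on the 3 endothelial genes (median -0.03), 2 lower with either filter on level (median 0.21 above the median level), and 5 to 9 higher and 0 to 1 lower with 1 pool left out (medians 0.11 to 0.21). For the ligands and partners, 3 were lower with all rows in the fit, 4 to 5 lower and 6 to 7 higher with 1 pool left out (medians 0.08 to 0.17), and the median was 0.10 with array weights, 0.18 with centring on array medians, 0.00 above the median level and -0.04 with centring on the 3 endothelial genes. The cause was not tested.

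Changes near 0 turned sign. With centring on the 3 endothelial genes Flt1 was at -0.09, Fli1 at -0.01, Apln at -0.14, Aplnr at -0.01, Egfl7 at -0.18 and Rasip1 at -0.08. With array weights Kdr and Egfl7 were each at -0.01 and Eng was at 0.01, as it was with centring on array medians, and Egfl7 was at -0.01 with quantile normalization. Over the fits with 1 pool left out, Clec14a ran from -0.09 to 0.03 (0.01 without mutant replicate 2), Kdr from -0.09 to 0.09, Eng from -0.07 to 0.04, Apln from -0.05 to 0.10, Egfl7 from -0.03 to 0.04 (-0.02 without mutant replicate 3) and Rasip1 from -0.10 to 0.21.

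With the replicate number as a block 10 of the 35 genes were higher, among 1011 higher and 1274 lower genes in all, and Cdh5, Erg and Ets1 lost their calls (adjusted p = 0.0852, 0.0553 and 0.0866 from limma). Deviations of same-numbered pools correlated at 0.014, -0.154 and -0.046, so the numbers were not taken as pairs.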

Other observations

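Genes of arterial, venous and lymphatic identity among the other vascular genes, named after their values were seen, took different values. Notch4, a Notch receptor of endothelium, had log2 array values of 7.76, 7.76 and 7.58 in controls and 8.17, 8.15 and 8.08 in mutants (0.43 ± 0.09 SE on the log2 scale, adjusted p = 0.0115 from limma). Dll4, the Notch ligand of arteries and tip cells, had 7.75, 7.61 and 7.48 in controls and 7.36, 7.30 and 7.47 in mutants, lower in every mutant pool but not past the test (log2 change -0.24 (95% confidence interval -0.47 to -0.01), adjusted p = 0.175). For the venous genes Ephb4, the receptor of Efnb2, and Nr2f2, which keeps vein identity, the log2 changes were -0.02 (95% confidence interval -0.23 to 0.20) and 0.28 (95% confidence interval 0.04 to 0.52). Prox1, which sets lymphatic identity and is also a factor of pancreatic progenitors, had a change of -0.09 (95% confidence interval -0.35 to 0.17). The related factors Sox7 (0.46 ± 0.11 SE on the log2 scale, adjusted p = 0.0147 from limma) and Sox18 (0.61 ± 0.16 SE on the log2 scale, adjusted p = 0.0329) rose with no overlap between the genotypes. These values do not separate arteries from other cells that make the same transcripts.

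Apela, a further ligand of Aplnr, was higher in the mutant pools at 7.99, 7.83 and 7.89 in controls and 8.34, 8.52 and 8.47 in mutants (0.54 ± 0.09 SE on the log2 scale, adjusted p = 0.00329 from limma), while Aplnr itself overlapped between the genotypes. Edn1, which encodes endothelin 1, was higher (0.42 ± 0.10 SE on the log2 scale, adjusted p = 0.0181) and Angptl4, a secreted inhibitor of lipoprotein lipase, was lower (-0.59 ± 0.10 SE on the log2 scale, adjusted p = 0.00274).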
